A study of Mus musculus with 75 samples.

Results

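MHC class II molecules carry peptides from ingested proteins to the surface of antigen-presenting cells, where CD4+ T cells read them. Here 7 genes of this pathway were followed through liver and epididymal white fat of lean and obese mice with or without the cannabinoid receptor CB1. They were chosen by name, as the genes whose symbols are H2-Aa, H2-Ab1, H2-Eb1, Cd74, Ciita, H2-DMa and H2-DMb1, out of 19147 genes with a symbol of their own on the array. Each was read by 1 probe set, so no choice among probe sets was needed, and all 7 entered every test.

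The mice were male C57BL/6 animals, either littermate controls (wild type) or homozygous CB1R-/- mice (knockout), which lack the receptor in every cell of the body from conception. Feeding began at 2 months of age and lasted 14 weeks, on chow (13% of kcal as fat) or on a high-fat diet (59.4% of kcal as fat). Each mouse received the CB1 inverse agonist AM251 at 10 mg/kg, or its vehicle of 0.5% methylcellulose, by gavage on 2 days, and tissue was collected on day 3 at 10 AM. Crossing tissue with diet, genotype and treatment gave 16 groups and 75 arrays, 39 from liver and 36 from fat. Groups held 5 arrays, except 4 in liver of high-fat knockouts on vehicle, and 3 each in fat of high-fat knockouts on vehicle and of chow knockouts on AM251. All mice were gavaged, so the vehicle groups are dosed controls and no group was left undosed.

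H2-Aa and H2-Ab1 encode the alpha and beta chains of I-A, the class II molecule of C57BL/6 mice. H2-Eb1 encodes the beta chain of I-E, whose alpha chain gene, H2-Ea, is defective in this strain. Cd74, the invariant chain, escorts new class II molecules to the endosome and blocks their groove. H2-DMa and H2-DMb1 form H2-DM, which exchanges the last fragment of Cd74 for antigenic peptide. Ciita is the transactivator that switches these genes on, without binding DNA itself, through factors held at an X box and a Y box in their promoters. In fat the pathway is best known from macrophages, dendritic cells and B cells, and adipocytes can also carry it. In liver it belongs mainly to Kupffer and dendritic cells.

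The promoter module through which Ciita acts can be read in the members' own sequence. It was searched in 4 of the 7 members (H2-Aa, H2-Eb1, H2-DMa and H2-DMb1), from a RefSeq promoter table of build GRCm38.p6. H2-Ab1 and Ciita had no entry. Cd74 was left out of the member search by name, with no reason recorded, so no result is given for its promoter. Stretches of 120 bases are printed here, 5′ to 3′ on the gene's strand. They show the Y box core with and without a match to the X box pattern AACNNNTG before it. Capitals mark the Y box core ATTGG and, before it, the X box core AACNNNTG. H2-Aa lies at chr17:34287824-34287943 on the minus strand, H2-Eb1 at chr17:34305747-34305866 on the plus strand and H2-DMb1 at chr17:34153071-34153190 on the plus strand.
H2-Aa: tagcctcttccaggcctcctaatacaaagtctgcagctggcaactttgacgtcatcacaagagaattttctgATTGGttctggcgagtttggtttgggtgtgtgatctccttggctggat
H2-Eb1: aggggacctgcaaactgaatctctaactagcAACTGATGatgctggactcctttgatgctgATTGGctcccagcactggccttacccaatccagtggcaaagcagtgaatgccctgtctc
H2-DMb1: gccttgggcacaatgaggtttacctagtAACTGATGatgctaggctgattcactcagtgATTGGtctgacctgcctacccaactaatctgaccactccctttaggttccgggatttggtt
H2-Eb1 and H2-DMb1 carried the same 8 letters, AACTGATG, at the X box core, followed after 22 and 23 bases by ATTGG. The Y box core began 59 and 61 bases before the start of these genes, and 48 bases before that of H2-Aa. Over all 32851 promoters of the table, windows of 300 bases were searched on both strands. An X box core 15 to 25 bases before a Y box core was found in 0.374% of them. Of the 4 members searched 2 held this pair. Each core alone was common, with ATTGG in 37.4% and AACNNNTG in 35.6% of promoters. A match is a description of letters, not a binding site, and a miss does not show that an X box is absent. In H2-Aa the letters aactttga before ATTGG miss the pattern AACNNNTG only at their end.

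Adipoq, the adipocyte hormone adiponectin, had a log2 intensity of 13.53 to 14.07 on the fat arrays and 2.68 to 3.56 on the liver arrays. Alb, the albumin gene of hepatocytes, had 14.68 to 14.96 in liver and 4.14 to 8.49 in fat, so that each array carried the markers of its labelled tissue. Cnr1, the gene of CB1, gave no check of genotype. On its probe set of the coding transcript, fat arrays labelled knockout ran from 4.95 to 7.33 and wild-type arrays from 5.03 to 8.02. Where the probes lie relative to the deletion is not given in the sources used here, and "knockout" stands below for arrays so labelled. Of 36 fat arrays, 4 had a summed intensity of 6 epididymis genes above 1000, from 1023 to 13852, against 494 at most on the others. These were chow wild-type vehicle array 5, high-fat wild-type vehicle array 3 and high-fat wild-type AM251 arrays 36 and 37. H2-Ea itself was dim everywhere, with 4.96 to 5.80 in fat and 4.596 to 5.58 in liver.

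In epididymal fat of wild-type mice on vehicle, all 7 class II genes rose on the high-fat diet (n = 5 and 5). The test throughout is limma's moderated test on log2 intensity, two-sided, with the Benjamini-Hochberg adjustment over all 19147 genes and a threshold of 0.05. In this comparison it called 24.5% of all genes, and 12.1% were called higher. The median change of the 7 genes was 0.81 on the log2 scale, against 0.02 over all genes. For 6 of the 7, every high-fat array lay above every chow array, which held for 8.02% of all genes in that direction.

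**Figure D1:**
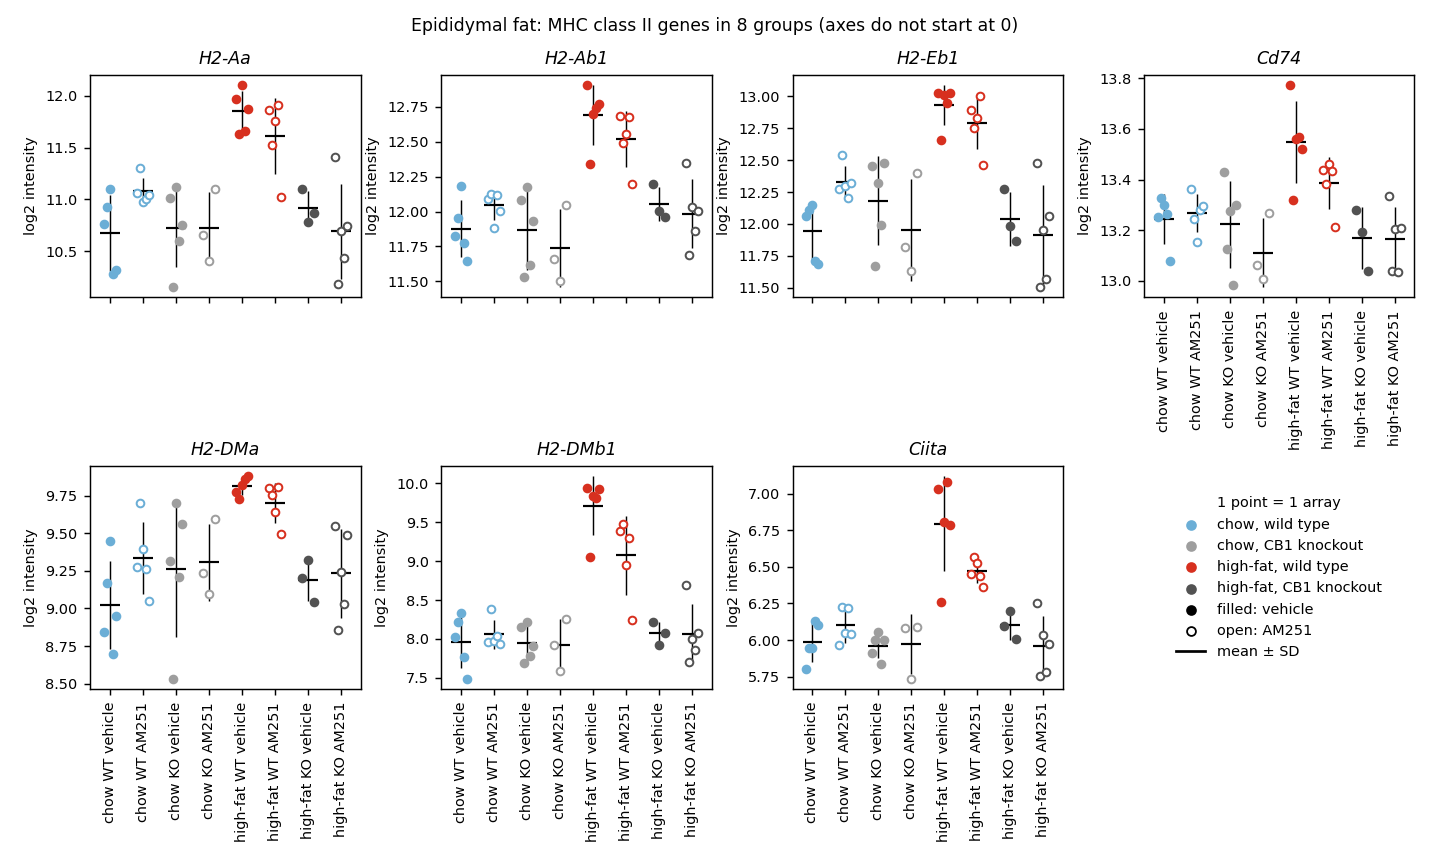
Log2 intensity of the 7 class II genes on each of 36 fat arrays (points), by group of diet, genotype and treatment, with group mean and SD as lines (vertical axes do not start at 0). For all 7 genes the high-fat wild-type vehicle group has the highest mean and the high-fat wild-type AM251 group the next, and the other 6 groups lie close together.

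H2-Aa had log2 intensities of 11.64, 11.66, 11.87, 11.97 and 12.11 on the high-fat arrays. The chow arrays had 10.28, 10.32, 10.77, 10.93 and 11.10. The groups did not overlap, and the gene rose by 1.17 ± 0.20 (SE, adjusted p = 3.68e-05), a 2.25-fold change. Its partner chain H2-Ab1 had 12.34, 12.70, 12.74, 12.77 and 12.91 on high-fat and 11.65, 11.78, 11.83, 11.95 and 12.19 on chow. Here too all high-fat arrays were above all chow arrays, with a rise of 0.81 ± 0.13 (adjusted p = 2.47e-05). H2-Eb1, the I-E beta chain, had 12.66, 12.95, 13.01, 13.02 and 13.03 against 11.68, 11.71, 12.06, 12.11 and 12.15. It rose by 0.99 ± 0.16 (adjusted p = 2.96e-05), although the alpha chain it needs for I-E is defective in this strain.

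Cd74, the invariant chain, changed least. Its values were 13.32, 13.52, 13.56, 13.57 and 13.77 on high-fat and 13.08, 13.25, 13.26, 13.30 and 13.33 on chow. The lowest high-fat array lay just below the highest chow array, so the groups overlapped, and the rise was 0.30 ± 0.085 (adjusted p = 0.00738), or 1.23-fold. 

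Of the peptide exchange factor, H2-DMa had 9.73, 9.78, 9.82, 9.86 and 9.88 on high-fat, a spread of 0.061 (SD). On chow it had 8.70, 8.84, 8.95, 9.17 and 9.45, and the rise was 0.79 ± 0.16 (adjusted p = 0.000385). H2-DMb1 changed most among the 7, from 7.49, 7.77, 8.02, 8.22 and 8.33 on chow to 9.05, 9.80, 9.84, 9.92 and 9.94 on high-fat. That is a rise of 1.75 ± 0.20 (adjusted p = 5.57e-07), or 3.35-fold. Mice carry a near-identical neighbouring gene, H2-DMb2, and how much of the H2-DMb1 signal comes from it cannot be told from these probes.

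Ciita, the transactivator, had 6.26, 6.78, 6.81, 7.03 and 7.08 on high-fat and 5.80, 5.95, 5.95, 6.10 and 6.13 on chow. It rose by 0.81 ± 0.11 (adjusted p = 3.17e-06), with no overlap of the groups. High-fat array 3, one of the arrays with epididymis RNA, was the lowest of its group for 7 of 7 class II genes. The part of epididymis RNA in its values was not tested. Leaving out any single array of the comparison kept all 7 genes past the threshold.

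In whole tissue, more cells carrying a transcript and more transcript per cell cannot be told apart. This holds for each fat and liver result here.

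In knockouts on vehicle the same diet comparison (n = 3 and 5) called 0 of the 7 genes. Over all genes it called 1 of 19147 (0.00522%), while 1353 had an unadjusted p under 0.05. Changes of the class II genes ran from -0.14 for H2-Eb1 to 0.19 for H2-Aa. The 95% intervals were wide enough to hold moderate changes: -0.27 to 0.65 for H2-Aa and -0.36 to 0.60 for H2-DMb1. Their upper bounds lay below the wild-type estimate for each of the 7 genes. In knockouts on AM251 (n = 5 and 3) the diet comparison also called 0 of 7 genes, with changes of -0.07 to 0.25, where 0.81% of all genes were called.

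**Figure D2:**
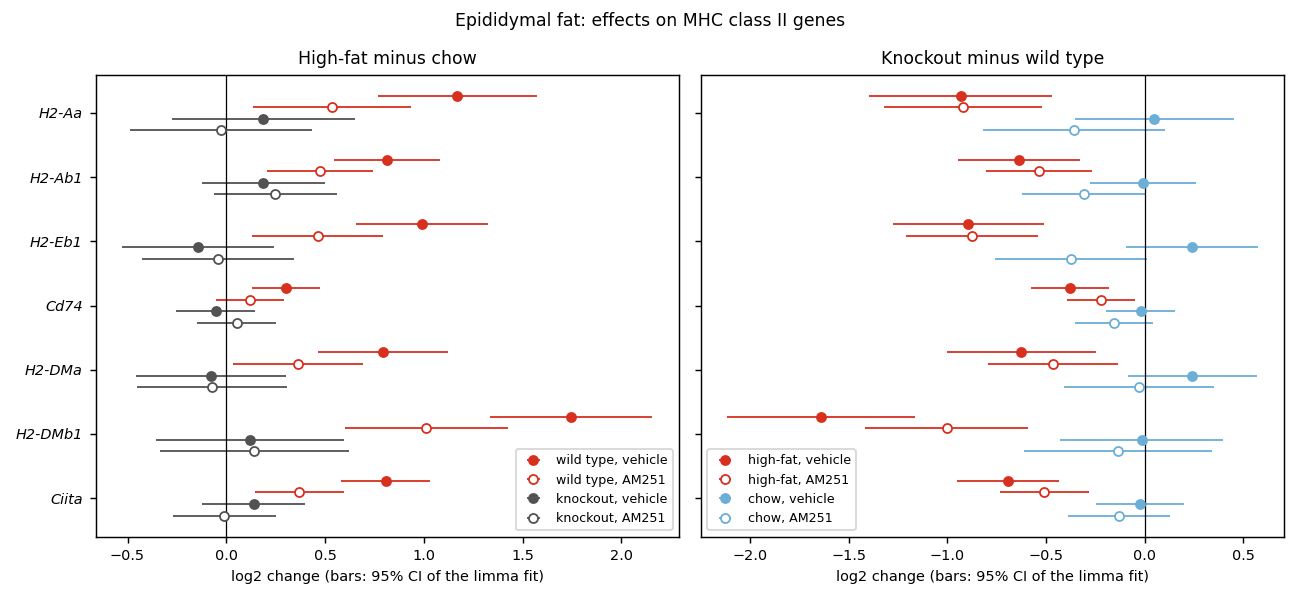
Log2 change of the 7 class II genes in fat with the 95% interval of the limma fit: high-fat minus chow by genotype and treatment (left), and knockout minus wild type by diet and treatment (right). The wild-type vehicle diet effects run from 0.30 to 1.75 and the knockout vehicle diet effects from -0.14 to 0.19.

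The difference between these diet effects, knockout minus wild type under vehicle, was tested directly. It passed the threshold for 5 of the 7 genes, all more negative in knockouts, where 6.34% of all genes passed and 3.46% were more negative. H2-DMb1 differed by -1.62 ± 0.31 (adjusted p = 0.00311) and H2-Eb1 by -1.13 ± 0.25 (adjusted p = 0.00728). Ciita differed by -0.67 ± 0.17 (adjusted p = 0.015), H2-DMa by -0.87 ± 0.25 (adjusted p = 0.0293) and H2-Aa by -0.98 ± 0.30 (adjusted p = 0.0438). H2-Ab1 at -0.63 (adjusted p = 0.0566) and Cd74 at -0.36 (adjusted p = 0.0939) did not pass. This count was sensitive to single arrays and ran from 2 to 7. It was 2 without high-fat knockout vehicle array 44. It was 3 without high-fat knockout vehicle array 42, chow knockout vehicle array 17 or 19, or chow wild-type vehicle array 1 or 4. H2-DMb1 and H2-Eb1 passed whichever array was left out. H2-Aa did not pass in 13 of the 18 fits without a single array (adjusted p of 0.0187 to 0.108), nor with every probe set tested on its own (adjusted p = 0.0526). H2-DMa did not pass in 6 of the 18 (0.00494 to 0.0939), nor with only the compared groups in the fit (adjusted p = 0.0547). Ciita did not pass in 1 of them (adjusted p = 0.0522).

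On the high-fat diet under vehicle, all 7 genes were lower in knockouts than in wild-type mice (n = 3 and 5). In this comparison 15.9% of all genes were called and 8.7% were called lower. For each of the 7, every knockout array lay below every wild-type array, which held for 11.3% of all genes. The wild-type vehicle arrays are those of the diet comparison, so both results rest on the same 5 arrays. The median change of the 7 genes was -0.69, against -0.01 over all genes.

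The knockout arrays of H2-Aa had 10.78, 10.87 and 11.10, inside the range of chow wild-type mice, and the change was -0.93 ± 0.23 (adjusted p = 0.00394). H2-Ab1 had 11.96, 12.01 and 12.19, a change of -0.64 ± 0.15 (adjusted p = 0.00337). H2-Eb1 had 11.86, 11.98 and 12.27, a change of -0.89 ± 0.19 (adjusted p = 0.00102). For H2-Ab1 and H2-Eb1 the highest knockout array lay just above the highest chow wild-type array and the others within that range.

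For Cd74 the knockouts had 13.04, 13.19 and 13.28, and the change was -0.38 ± 0.098 (adjusted p = 0.00645). H2-DMa had 9.04, 9.20 and 9.32, a change of -0.62 ± 0.19 (adjusted p = 0.0187). These are the least secure of the 7. Without knockout array 44 the adjusted p was 0.0721 for Cd74 and 0.106 for H2-DMa, without array 42 it was 0.0562 for H2-DMa, and with only the compared groups in the fit it was 0.0518 for Cd74. H2-DMb1 again moved most, with 7.93, 8.08 and 8.21 in knockouts and a change of -1.64 ± 0.23 (adjusted p = 2.34e-05). Ciita had 6.00, 6.10 and 6.20, a change of -0.69 ± 0.13 (adjusted p = 0.000245).

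Under AM251 the genotypes were compared in other mice (n = 5 and 5), with no array in common with the vehicle comparison. On the high-fat diet 6 of the 7 genes were again lower in knockouts, where 15.2% of all genes were called and 6.99% were called lower. H2-DMb1 changed by -1.004 ± 0.20 (adjusted p = 0.000867), H2-Aa by -0.92 ± 0.20 (adjusted p = 0.00147) and H2-Eb1 by -0.88 ± 0.16 (adjusted p = 0.000409). H2-Ab1 changed by -0.54 ± 0.13 (adjusted p = 0.00507) and Ciita by -0.51 ± 0.11 (adjusted p = 0.0017). H2-DMa was at the edge, at -0.47 ± 0.16 (adjusted p = 0.0465, and 0.0216 to 0.164 with single arrays left out, past the threshold in 3 of these 10 fits, and 0.0928 without the arrays with epididymis RNA), and Cd74 did not pass, at -0.22 ± 0.085 (adjusted p = 0.0745).

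Between these AM251 groups only Ciita showed no overlap of arrays, where 2.67% of all genes had none with knockouts lower. The overlap of the other 6 came from a pair of arrays. Wild-type array 37, which carried epididymis RNA, was the lowest of its group for 7 of 7 genes. Its H2-DMb1 was at 8.25, against 8.95 to 9.48 on the other arrays of the group. Array 36 of that group, with the largest epididymis sum (13852), was the highest for 3 of 7 genes and the lowest for 0. Chow wild-type vehicle array 5, with a sum of 2645, was the lowest of its own group for 4 of 7. Knockout array 45 was the highest of its group for 7 of 7, with H2-DMb1 at 8.69 against 7.71 to 8.08. Without array 37 the groups did not overlap for 7 genes, and the same held without array 45. These arrays were singled out after their values were seen, which favours such a separation. The share of all genes was not counted for these reduced groups, so no conclusion is drawn from the 7.

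On chow the genotypes gave no call among the 7 genes. Under vehicle (n = 5 and 5) differences ran from -0.02 to 0.24, with 0.0575% of all genes called. Under AM251 (n = 3 and 5) they ran from -0.37 to -0.03, with 3.39% of all genes called. The 95% intervals under vehicle were -0.35 to 0.45 for H2-Aa and -0.25 to 0.20 for Ciita.

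AM251 itself moved none of the 7 genes past the threshold in any of 8 comparisons with vehicle, 4 in each tissue, of which fat of high-fat wild-type mice came nearest (n = 5 and 5). The other 3 fat comparisons called 0% of all genes in high-fat knockouts, 0% in chow wild-type mice and 0.0157% in chow knockouts. An unadjusted p under 0.05 was found there for 0 of the 7 genes in high-fat knockouts (3.72% of all genes), 1 in chow wild-type mice (13.4%) and 0 in chow knockouts (8.13%). In liver the number was 3 in high-fat knockouts (3.36% of all genes), 1 in chow wild-type mice (10.8%), 0 in high-fat wild-type mice (11.2%) and 0 in chow knockouts (13.9%). In fat of high-fat wild-type mice 1.11% of all genes were called, and all 7 class II genes had negative changes. Of these 2 had an unadjusted p under 0.05, as had 13.4% of all genes. H2-DMb1 had 8.25, 8.95, 9.30, 9.39 and 9.48 under AM251 against 9.05 to 9.94 under vehicle. The groups overlapped and the change was -0.64 ± 0.20 (adjusted p = 0.118). Ciita had 6.36, 6.44, 6.45, 6.52 and 6.57 against 6.26 to 7.08, a change of -0.32 ± 0.11 (adjusted p = 0.157). Vehicle array 3 was the only vehicle array below this AM251 range for Ciita, and without it 2 of the 7 genes passed. Without AM251 array 34, 1 passed. The other 5 genes changed by -0.11 to -0.24.

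The 2-day AM251 dose left a diet difference in wild-type fat. With both diet groups on AM251 (n = 5 and 5), 3 of the 7 genes were higher on high-fat, where 9.55% of all genes were called and 4.76% were called higher. H2-DMb1 rose by 1.01 ± 0.20 (adjusted p = 0.00169), H2-Ab1 by 0.48 ± 0.13 (adjusted p = 0.0191) and Ciita by 0.37 ± 0.11 (adjusted p = 0.0299). H2-Aa at 0.53 (adjusted p = 0.0826), H2-Eb1 at 0.46 (adjusted p = 0.0693), H2-DMa at 0.36 (adjusted p = 0.164) and Cd74 at 0.12 (adjusted p = 0.45) did not pass. The count was 1 without high-fat AM251 array 33 or 36 or chow AM251 array 12, and 5 without high-fat AM251 array 37 or with weights for each array. Ciita did not pass in 7 of the 10 fits without a single array (adjusted p of 0.026 to 0.0887), and H2-Ab1 in 3 of them (0.00657 to 0.0579).

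Whether AM251 changed the diet effect was tested as an interaction in wild-type fat. The 7 estimates were all negative, from -0.19 for Cd74 to -0.73 for H2-DMb1, and 4 had an unadjusted p under 0.05. The lowest adjusted p was 0.353, and 0 of 19147 genes (0%) passed, with 2001 (10.5%) at an unadjusted p under 0.05. The interaction of AM251 with genotype in high-fat fat also called 0 of 7, with estimates of 0.01 to 0.63, where 0.407% of all genes passed, and so did that on chow, where 0.00522% passed.

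Ordered by mean, the fat groups formed the same top pair for each of the 7 genes: high-fat wild-type mice on vehicle, then those on AM251. The step from the first to the second was larger than the spread (the larger SD of the pair) for 3 genes, Cd74, H2-DMb1 and Ciita. The step from the second to the third group exceeded it for 7 of 7 genes. Single arrays still overlapped across this step for H2-Aa, H2-Eb1, Cd74 and H2-DMa, and across the step from the first to the second for each of the 7. The step reaches only the third group by mean. The lowest arrays of the second group for H2-DMb1 (8.25) and H2-Ab1 (12.20) lay below the highest of high-fat knockouts on AM251 (8.69 and 12.35). Among the remaining 6 groups no step exceeded the spread for any gene, so chow mice of either genotype and high-fat knockouts could not be put in order. For H2-Aa these 6 means lay between 10.68 and 11.08, against 11.61 ± 0.36 and 11.85 ± 0.20 (SD, n = 5 each) in the top pair. For Ciita they lay between 5.96 and 6.10, against 6.47 ± 0.078 and 6.79 ± 0.32.

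The class II genes also varied together from array to array. Over the 36 fat arrays the 21 pairs of genes had Pearson correlations of 0.67 to 0.96, with a median of 0.87. After each group's mean was removed the median was 0.74. The 15 pairs without Ciita then had 0.46 to 0.91, and the 6 pairs with Ciita 0.31 to 0.55. These arrays share their RNA and normalization, and the values are descriptions. The genes outside the 7 whose pattern over the 36 arrays was most like the mean of the 7 were Mpeg1 (r = 0.96), a pore-forming protein of macrophages, Clec4b1, Otulinl, the Fc receptor Fcgr3, the endosomal protease Lgmn, the signalling adaptor Tyrobp, cathepsin L (Ctsl), Lcp1, Alox5ap and Lcp2 (r = 0.94).

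The machinery around the class II genes was read from lists of genes. The proteases and enzymes that prepare peptides and turn class II over (7 measured genes) all rose with the high-fat diet in wild-type vehicle fat, with a median of 0.84. Ifi30, the thiol reductase that unfolds antigens, rose by 1.75, Lgmn by 1.69, Ctsl by 1.54 and cathepsin D (Ctsd) by 0.42. On the high-fat diet 5 of these 7 were lower in knockouts, with Ifi30 at -1.85, Lgmn at -1.65, Ctsl at -1.15 and Marchf1, a ubiquitin ligase that removes class II from the surface, at -1.04. The diet effect differed between genotypes for 4 of the 7. Of 4 accessory chain genes 2 rose with diet, H2-Ob by 0.42 and H2-Eb2 by 0.38. H2-Eb2 was dim, with a mean log2 intensity of 3.54 over the fat arrays. H2-Ob, a chain of the H2-DM inhibitor H2-O, was lower in high-fat knockouts at -0.41. Without the 4 arrays with epididymis RNA 1 of the 4 accessory chain genes rose with diet.

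**Figure D3:**
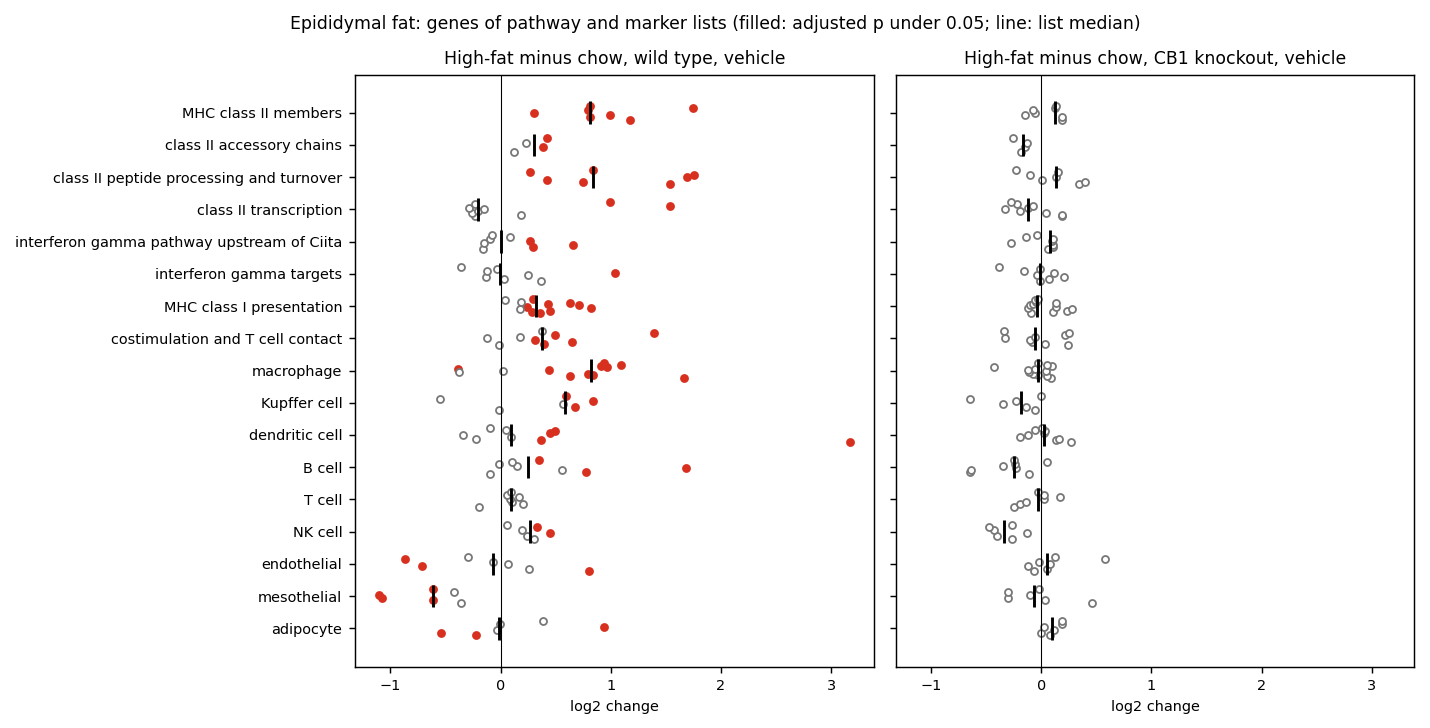
Log2 change from chow to high-fat diet in fat of vehicle-dosed mice for each gene of the pathway and marker lists, in wild-type mice (left) and knockouts (right), with filled points past the adjusted threshold and the list median as a line. In wild-type mice 7 of 7 class II genes, 7 of 7 processing genes and 9 of 12 macrophage markers are filled and higher, and in knockouts no gene of these lists is filled.

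Upstream of the class II promoters the picture was narrower. Of 9 genes for class II transcription factors 2 rose with diet in wild-type fat, Spi1 (PU.1) by 1.54 and Irf8 by 1.00, both known from myeloid cells. Without the 4 arrays with epididymis RNA 2 of the 9 were also called lower. Spi1 at -1.74 and Irf8 at -1.44 were lower in high-fat knockouts, and both differed in diet effect between genotypes. Rfxank, a subunit of the X box complex, was higher there at 0.42. Of 8 genes of the interferon gamma pathway, a known inducer of Ciita, 3 rose with diet: the receptor chains Ifngr2 by 0.66 and Ifngr1 by 0.30, and Irf1 by 0.27. Ifngr2 was lower in high-fat knockouts at -0.68, and no gene of this list passed the interaction. Of 8 interferon gamma targets 1 rose, Cxcl10 by 1.04, and the list median was -0.00. Cxcl10 was also the only one lower in high-fat knockouts, at -1.11.

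Of 12 genes of MHC class I presentation 9 rose with diet in wild-type vehicle fat, with a median of 0.32; the proteasome subunit Psmb10 rose by 0.63, the peptide transporter Tap2 by 0.82, B2m by 0.45 and H2-K1 by 0.36. Without the 4 arrays with epididymis RNA 6 of the 12 were higher. In high-fat knockouts 3 were lower, Psmb10, Psmb8 and H2-K1, and 3 differed in diet effect. Of 9 genes of costimulation and T cell contact 5 rose with diet, among them Cd83 by 1.39 and Cd40 by 0.64, and 4 were lower in high-fat knockouts, with Cd83 at -1.30 and Cd40 at -0.58. Without the 4 arrays with epididymis RNA 3 of the 9 rose with diet and 3 were lower in high-fat knockouts.

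Markers of macrophages moved with the class II genes. Of 12 markers 9 rose with diet in wild-type vehicle fat and 1 fell, with a median of 0.82 (9 and 0 without the 4 arrays with epididymis RNA). Adgre1, the classical macrophage surface marker, rose by 1.66, C1qb by 1.09, C1qa by 0.91 and Mrc1 by 0.80. In high-fat knockouts 9 of 12 were lower than in wild-type mice, with a median of -0.85, and 6 of 12 differed in diet effect. The summed intensity of the 12 ran from 19625 to 36880 in high-fat wild-type vehicle fat, from 11842 to 16378 in chow wild-type and from 13589 to 14078 in high-fat knockout vehicle fat. Under AM251 the sum was 16892 to 29733 in high-fat wild-type and 13344 to 17638 in high-fat knockout fat. The part of macrophages in the class II result was not tested.

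Dendritic cell markers rose for 4 of 9 genes, with a median of 0.10, where 12.1% of all genes were called higher. Among the 4 were Itgax (CD11c) by 3.17, which inflammatory macrophages of fat also carry, and Flt3 by 0.37. Cd209a at -0.35, Zbtb46 at -0.23 and Siglech at -0.10 had negative changes that did not pass. Without the 4 arrays with epididymis RNA 4 of the 9 rose and 1 was called lower. In high-fat knockouts 3 of 9 were lower, with Itgax at -3.31, and Zbtb46 was higher at 0.46. Their summed intensity was 4007 to 7955 in high-fat wild-type, 2667 to 3648 in chow wild-type and 3131 to 3317 in high-fat knockout vehicle fat. Of 8 B cell markers 3 rose, Cd22 by 1.68, Cd79b by 0.77 and Fcrla by 0.34. Cd79a at -0.10 and Pax5 at -0.02 did not rise. The sum of the 8 was 396 to 783 against 248 to 324 on chow. In high-fat knockouts it was 282 to 361, 1 marker was lower, and 3 differed in diet effect. Without the 4 arrays with epididymis RNA 1 of the 8 rose and 1 differed in diet effect. Ms4a1 (CD20), a defining B cell gene, was dim, at 4.33 to 6.32 over all fat arrays. Of 7 T cell markers 0 passed in the diet comparison, in the genotype comparison or in the interaction. Their sum was 545 to 617 in high-fat and 538 to 604 in chow wild-type vehicle fat. The part of dendritic and B cells in the class II result was not tested.

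Markers of other cell types were also read in wild-type vehicle fat, where the diet comparison called 24.5% of all genes and 12.1% higher. Lists with counts near these shares, or with calls in both directions, are not read as a shift of a cell type. On the high-fat diet 4 of 6 mesothelial markers fell, with Krt19 at -1.11 and Wt1 at -1.07, and 5 of 6 were higher in high-fat knockouts than in wild-type mice. Of 6 adipocyte markers 1 rose (Lep by 0.94) and 2 fell (Plin1 at -0.55, Adipoq at -0.23). Of 7 endothelial markers 1 rose and 2 fell, of 6 NK cell markers 2 rose, and of 6 Kupffer cell markers, several of which tissue macrophages also carry, 3 rose. Of 6 hepatocyte genes Alb fell by 2.13 on the log2 scale and Ttr rose by 0.21. When the 4 arrays with epididymis RNA were left out, 0 endothelial markers and 0 hepatocyte genes rose, and 2 of each fell. Of the 6 epididymis genes 0 passed. The part of these cell types in the class II result was not tested.

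In liver 0 of the 7 class II genes passed the threshold in any of the 16 comparisons within the tissue, interactions included. The diet comparison of vehicle-dosed wild-type mice came nearest (n = 5 and 5), where 1.69% of all genes were called. All 7 changes were positive, from 0.14 for Ciita to 0.88 for H2-Aa, and the lowest adjusted p was 0.164. An unadjusted p under 0.05 was found for 5 of the 7, against 12.4% of all genes. H2-Aa had 7.52, 8.22, 8.30, 8.74 and 8.98 on high-fat and 6.48, 7.20, 7.77, 7.83 and 8.06 on chow. The groups overlapped, as they did for the other 6 genes. The SD of H2-Aa was 0.56 and 0.64 in these liver groups, against 0.20 and 0.37 in fat, and the 95% interval of the liver change was 0.25 to 1.52.

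**Figure D4:**
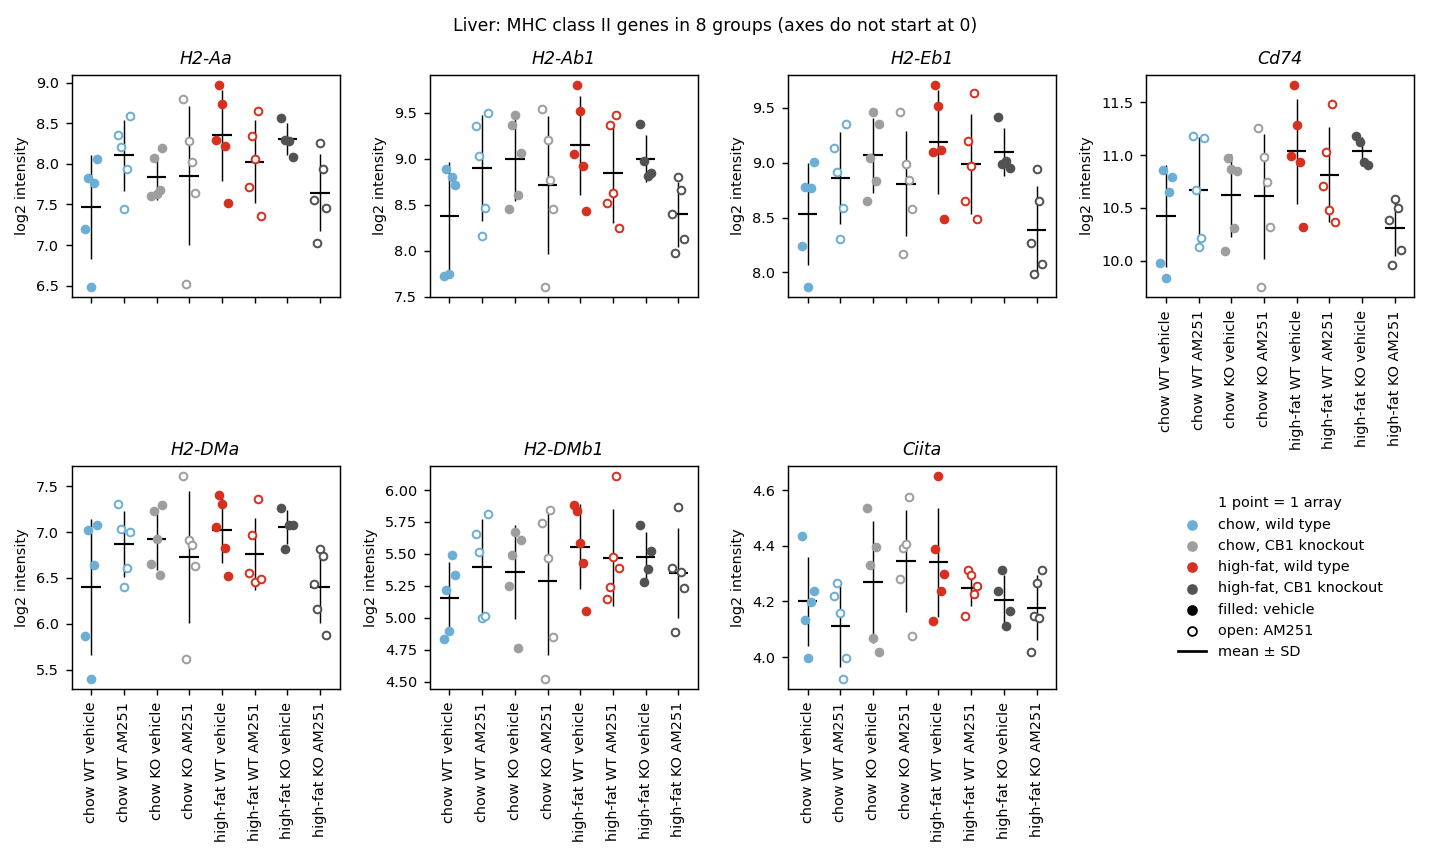
Log2 intensity of the 7 class II genes on each of 39 liver arrays (points), by group, with group mean and SD as lines (vertical axes do not start at 0). No step between groups next to each other in order of mean exceeds the spread, and 0 of 7 genes passed the threshold in any liver comparison.

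Knockout livers did not stand apart from wild-type livers on the high-fat diet under vehicle (n = 4 and 5), with differences of -0.14 to 0.04, where 1.19% of all genes were called. On chow under vehicle (n = 5 and 5) the differences were 0.07 to 0.62, where 6.77% of all genes were called, and the lowest adjusted p was 0.2. AM251 in high-fat knockout livers (n = 5 and 4) gave changes of -0.73 for Cd74 to -0.03 for Ciita. For H2-Ab1, H2-Eb1 and Cd74 every AM251 array lay below every vehicle array, which held for 1.47% of all genes. The adjusted p was 0.999 for each, in a comparison that called 0.0104% of all genes. Cd74 had 9.96 to 10.58 under AM251 and 10.91 to 11.18 under vehicle.

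The other liver comparisons likewise called 0 of the 7 genes, and each is given with its share of all genes called. For AM251 against vehicle the share was 1.91% in high-fat wild-type mice, 0% in chow wild-type mice and 0.125% in chow knockouts, with class II changes between -0.33 and 0.64 in all. For genotype under AM251 it was 2.3% on the high-fat diet and 0.324% on chow, with changes of -0.60 to 0.23. For diet it was 1.96% in wild-type mice on AM251, 17% in knockouts on vehicle and 2.64% in knockouts on AM251, with changes of -0.43 to 0.47. The interaction of diet with genotype under vehicle called 4.17%, that of AM251 with diet in wild-type mice 0.251%, and that of AM251 with genotype 0.564% on the high-fat diet and 0% on chow. The largest class II estimate among these interactions was -0.97, with an adjusted p of 0.693.

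By level, high-fat wild-type vehicle livers had the highest mean for 5 of the 7 genes, but no step between neighbours exceeded the spread for any gene. H2-DMa was highest in high-fat knockouts on vehicle and Ciita in chow knockouts on AM251. With quantile normalization high-fat wild-type vehicle livers had the highest mean for 7 of 7 genes, so these exceptions depended on the normalization. Ciita was dim in liver, with group means of 4.11 to 4.35. Over the 39 liver arrays the gene pairs had correlations of 0.04 to 0.94, with a median of 0.79, and of 0.81 after group means were removed. The 6 pairs with Ciita had -0.00 to 0.12 after group means were removed, against 0.76 to 0.97 for the 15 pairs of the other genes. The genes most like the mean of the 7 were Srgn (r = 0.85), the proteoglycan of blood cell granules, Plac8, Fgl2, Slc11a1, Adgre5, Fcer1g, Slc15a3, C1qb, Pkm and Cd52 (r = 0.77). C1qb is a macrophage marker of the lists used in fat.

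Between tissues, all 7 genes were brighter in fat than in liver of chow wild-type vehicle mice (n = 5 and 5). The tissues differed in overall brightness, with array medians of 25.8 to 28.7 intensity units in liver and 44.3 to 48.04 in fat, and the median gene was higher in fat by 0.50 on the log2 scale. In this comparison 79.4% of all genes were called and 67% were called higher in fat. Against that shift, H2-Ab1 was higher by 3.50 ± 0.25, H2-Eb1 by 3.41 ± 0.22 and H2-Aa by 3.21 ± 0.27. Cd74 was higher by 2.82 ± 0.20, H2-DMb1 by 2.81 ± 0.22, H2-DMa by 2.62 ± 0.24 and Ciita by 1.79 ± 0.11. Adjusted p ran from 1.68e-24 to 9.53e-16, and every fat array lay above every liver array for the 7 genes, as for 56% of all genes.

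The diet effect in vehicle-dosed wild-type mice was larger in fat than in liver for 2 of the 7 genes, where 14.2% of all genes differed and 6.85% were more positive in fat. H2-DMb1 differed by 1.34 ± 0.31 (adjusted p = 0.00128) and Ciita by 0.67 ± 0.15 (adjusted p = 0.000934). Both passed whichever array was left out. For the other 5 the difference was -0.31 for Cd74 to 0.34 for H2-Eb1, with 95% intervals such as -0.49 to 1.06 for H2-Aa. A rise in fat past the threshold and a liver change short of it were therefore not shown to differ for the antigen-binding chains, Cd74 and H2-DMa.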

How the data were processed

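RNA of liver and fat was measured on 75 one-colour arrays. The authors deposited linear-scale intensities, 1 per probe set and array, made with RMA, per the submitters' processing notes (version not given in the sources used here). RMA compresses small differences of dim probe sets, and whether the tissues were normalized together is not stated. Of 38385 probe sets, 24478 had 1 gene symbol, and each of 19147 genes was taken from its probe set with the highest mean.

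Intensities were put on the log2 scale and fitted with limma 3.58.1 in R 4.3.3, with 1 mean per group, 1 fit for each tissue and 1 fit of all 16 groups for tissue differences. In all 34 contrasts were tested and adjusted over all genes; the scripts were tested on simulated data. Each array is named by its number in the labels. Within a tissue the numbers were taken to mark separate mice, and the number of arrays limits the precision. In 30 cases a liver and a fat array of the same diet, genotype and treatment shared a number and may come from 1 mouse. The main tissue comparisons did not pair them, and the animal number as a block was run as an alternative. No batch is given in the labels. Genes, lists and tests were chosen with earlier results of these data known. The text names all 7 genes, up to 4 genes of each list with the smallest p past the threshold, and the 10 genes most like the mean of the 7 in each tissue. Alternatives were the groups in the fit, array weights, quantile normalization, a filter at log2 intensity 5, an offset of 16, other uses of probe sets, a replicate block, and leaving out each array. Leaving out the arrays with epididymis RNA was added after seeing the data.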

Additional observations from a re-analysis of the deposited data

Results flagged for a closer look

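Gaps between an array and its group were set against the group's whole range in 98 sets of 4 or more arrays, and 5 stood out, where chance gives about 1 in 20. In fat of high-fat wild-type vehicle mice, array 3 was lowest for H2-DMb1, at a log2 intensity of 9.05 against 9.80 for the next (gap 0.844 of the range), and for H2-Eb1, at 12.66 against 12.95 (0.777). This array also carried epididymis RNA, whose part in these values was not tested. In fat of chow wild-type AM251 mice, array 11 was highest for H2-DMb1, at 8.39 against 8.03 (0.783), and for H2-Aa, at 11.30 against 11.07 (0.73). In liver of high-fat knockout vehicle mice, array 40 was highest for H2-Eb1, at 9.42 against 9.01 (0.865).

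Effects that differed between groups by their own test were the diet effects in vehicle fat, knockout minus wild type, of H2-DMb1 (-1.62), H2-Eb1 (-1.13), H2-Aa (-0.982), H2-DMa (-0.867) and Ciita (-0.67). With single arrays left out, H2-Aa did not pass in 13 of 18 fits, H2-DMa in 6 and Ciita in 1. Between tissues the diet effect in wild-type vehicle mice was larger in fat for H2-DMb1 (1.34) and Ciita (0.667).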

How the results depend on the processing

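Counts of class II genes past the threshold moved by over 1.5 times in 3 comparisons, and the cause of these moves was not tested. With single arrays left out, the interaction of diet and genotype in vehicle fat gave 2 to 7 genes against 5. The diet effect in wild-type AM251 fat gave 1 to 5 against 3, and 5 with array weights. The AM251 effect in high-fat wild-type fat gave 0 to 2 against 0. The other counts stayed within 1.5 times under the alternatives run: in vehicle fat the diet effect gave 6 to 7 genes and the high-fat genotype effect 5 to 7, and in AM251 fat the high-fat genotype effect 5 to 7. The tissue difference of the diet effect of H2-Ab1, which was not called at 0.05, ran from -0.13 to 0.21 with single arrays left out and was negative in 7 of 20 such fits. Without the 4 arrays with epididymis RNA, no count of class II genes moved by over 1.5 times. Sample numbers shared by chow and high-fat wild-type vehicle mice did not pair them. Over 4 pairs in fat the deviations correlated at -0.13 to 0.06 and over 5 in liver at -0.17 to 0.22. With this number as a replicate block 6 of 7 genes passed in fat, Cd74 at 0.33 having an adjusted p of 0.115, and 0 in liver; with the animal number as a block across tissues the counts were 7 and 2. In liver the SD within groups ran from 0.065 for Ciita to 0.86 for H2-Aa. The number of arrays, 3 to 5 in a group, limits the precision of every comparison.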
